A study of Mus musculus with 18 samples.

Results

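Autophagy genes encode the proteins with which a cell encloses part of its own contents in a membrane and delivers it to the lysosome. The 37 genes described here are the core of that pathway, from the starting kinase to the receptors that choose the cargo. They were chosen by symbol for their place in the pathway, and all 37 were found among the 24485 genes measured in each library. RNA was measured by RNA-seq in bone marrow-derived macrophages (BMDMs) of Il10-/- mice on the C57BL/6J background, which all 6 groups shared, so no group could make functional IL-10. Cells of 3 male mice of 12 weeks were grown for 6 days in medium conditioned by L929 cells. They were then left untreated, treated with 500 nM (+)-JQ1 (written JQ1 here) or given IL-10 at 10 ng/mL, each for 12 hours. JQ1 is a small molecule that occupies the bromodomains of BET proteins and so keeps them from acetylated histones, and IL-10 is the anti-inflammatory cytokine these cells lack. LPS, a cell wall component of Gram-negative bacteria, was added at 50 ng/mL for 4 hours to 3 of the groups and buffer to the others. The groups were thus unstimulated, JQ1, IL-10, LPS, LPS + JQ1 and LPS + IL-10, with 3 libraries each. The titles number the replicates of each group 1 to 3 without saying whether a number stands for the same mouse in every group, and values are given in that order throughout.

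Autophagy begins when the ULK kinase complex is released from inhibition by the nutrient sensor mTORC1 and activates a lipid kinase complex built on Pik3c3 and Becn1. The lipid it makes recruits the WIPI proteins, Atg2 proteins bring in further lipid, and the Atg5, Atg12 and Atg16l1 proteins attach the small Atg8 proteins (LC3 and GABARAP) to the growing membrane. Receptors such as p62, the product of Sqstm1, tie cargo to the Atg8 proteins, and in macrophages this route also disposes of intracellular bacteria and damaged mitochondria and restrains inflammatory signalling. RNA-seq reads the RNA of these genes, and neither autophagic flux nor lipidated LC3 was measured.

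Promoter sequence was available from RefSeq (GRCm38.p6) for 31 of the 37 genes, as windows from 250 bases before to 50 bases after a transcription start, in 35 windows. Windows of 4 genes are shown because these genes moved in different ways. Ulk1 and Atg14 fell with LPS and were higher with JQ1, Sqstm1 rose with LPS and was higher still with JQ1 but lower with IL-10, and Optn rose with LPS, was lower when JQ1 had been given and higher after IL-10. Capitals mark GGGCGG, the GC box, on either strand (read as CCGCCC from the other) and CACGTG, the E-box core bound by the autophagy regulator TFEB among others. All 4 windows lie on the minus strand and are written 5′ to 3′ in the direction of transcription.
Ulk1, chr5:110810032-110810331: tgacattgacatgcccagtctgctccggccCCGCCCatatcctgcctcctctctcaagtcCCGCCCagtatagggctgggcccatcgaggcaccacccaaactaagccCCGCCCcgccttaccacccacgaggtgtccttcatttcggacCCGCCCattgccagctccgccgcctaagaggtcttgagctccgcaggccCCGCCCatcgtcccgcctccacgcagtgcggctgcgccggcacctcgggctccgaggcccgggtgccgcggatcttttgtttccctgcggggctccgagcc
Atg14, chr14:47568385-47568684: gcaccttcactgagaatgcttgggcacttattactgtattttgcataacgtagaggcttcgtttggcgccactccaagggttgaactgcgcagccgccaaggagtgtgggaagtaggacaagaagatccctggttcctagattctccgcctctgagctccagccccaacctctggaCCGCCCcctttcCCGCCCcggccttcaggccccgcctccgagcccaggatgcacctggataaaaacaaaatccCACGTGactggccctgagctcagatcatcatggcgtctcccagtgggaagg
Sqstm1, chr11:50210771-50211070: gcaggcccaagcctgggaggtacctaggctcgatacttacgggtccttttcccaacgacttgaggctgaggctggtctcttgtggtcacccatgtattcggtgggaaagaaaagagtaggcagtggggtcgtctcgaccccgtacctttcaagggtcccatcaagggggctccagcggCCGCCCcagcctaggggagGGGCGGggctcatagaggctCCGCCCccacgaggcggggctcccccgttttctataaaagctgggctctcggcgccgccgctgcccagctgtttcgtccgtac
Optn, chr2:5064068-5064367: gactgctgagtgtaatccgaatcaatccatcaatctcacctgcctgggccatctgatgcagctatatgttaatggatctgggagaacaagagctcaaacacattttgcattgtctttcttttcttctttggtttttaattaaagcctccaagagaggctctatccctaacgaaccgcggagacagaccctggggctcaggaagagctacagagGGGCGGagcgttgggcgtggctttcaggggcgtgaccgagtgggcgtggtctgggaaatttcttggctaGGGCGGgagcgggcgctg
The Ulk1 window holds 5 GC boxes, that of Sqstm1 3 and those of Atg14 and Optn 2 each, and the Atg14 window also holds 1 E-box. Over the 35 windows, GGGCGG occurred in 22 (62.9%), against 35.7% of all 32851 mouse promoter windows of the same length. CACGTG occurred in 4 (11.4%, against 7.15% of all windows), in Atg14, Atg3, Atg5 and Atg7. TGANTCA, the AP-1 site, occurred in 0 of the 35, against 7.81% of all windows. Both strands were searched and no motif was required to be free of overlap with another. The windows of all genes were not matched to these 35 for base composition or for expression in these cells. These counts describe letters in short windows and are no measure of binding.

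Library depth, as summed expected counts, was 6781952 to 28289498, with unstimulated replicate 2 the shallowest. LPS replicate 3 and LPS + IL-10 replicate 3 stood apart from their groups, with a chi-square per degree of freedom of 24.2 to 28.3 against the other 2 libraries, where all other replicate pairs had 3.97 to 10.5. Without LPS replicate 3 the number of autophagy genes called was 36 for LPS in place of 34, 30 as before for LPS + JQ1 against LPS and 5 in place of 7 for LPS + IL-10 against LPS, and without LPS + IL-10 replicate 3 the last was 6. The ribosomal transcript Rn45s took 10.0% ± 0.95 of counts in unstimulated libraries, 11.4% ± 0.91 in JQ1, 9.77% ± 0.79 in IL-10, 6.44% ± 0.80 in LPS, 7.55% ± 0.41 in LPS + JQ1 and 6.60% ± 0.80 in LPS + IL-10 (SD, n = 3), and these counts enter total-count scaling. The Il10 locus still gave reads, at normalised counts of 27.1 to 60.5 in the 9 libraries without LPS and 53.7 to 176.7 in the 9 with it, and the labels do not give the deleted part of the gene, so these counts do not check the knockout. Of 9 macrophage marker symbols 8 were found and all 8 were expressed, with a summed TPM of 22971 to 24769 in the unstimulated libraries, 28936 to 29066 under JQ1 and 23097 to 24477 under IL-10. In LPS libraries it was 14317 to 15764, in LPS + JQ1 libraries 19578 to 22564 and in LPS + IL-10 libraries 15336 to 16990. Lyz2 gave most of these sums, and 5 of the 8 markers were lower on average under JQ1 than in unstimulated cells, from 118 to 10.5 TPM for Fcgr1, 309 to 86.3 for Itgam, 1622 to 1194 for Csf1r, 2085 to 1653 for Cd68 and 685 to 492 for Adgre1. Summed TPM of 7 neutrophil and precursor markers was 23.2 to 84.2 in the unstimulated group, 7.46 to 16.9 in JQ1, 25.0 to 35.6 in IL-10, 35.5 to 50.8 in LPS, 13.0 to 29.6 in LPS + JQ1 and 30.7 to 69.0 in LPS + IL-10, and Ly6g stood at 0 throughout. The 3 fibroblast markers summed to 4.15 to 9.22 TPM in the 9 libraries without LPS, 16.9 to 19.9 in LPS and LPS + IL-10 libraries and 2.13 to 6.91 in LPS + JQ1 libraries, and the higher values came from Pdgfrb, as Col1a1 and Col1a2 were no higher. T cell markers summed to at most 8.72 TPM, of which Cd4 gave nearly all, and B cell, dendritic cell, erythroid and mast cell markers to at most 0.84, 2.61, 0.48 and 0.45 TPM. The part of these shifts and of Rn45s in the results was not tested, and in bulk RNA fewer cells of a type and less RNA per cell cannot be told apart.

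The autophagy genes spanned nearly 2 orders of magnitude in level. On the length-scaled TPM scale the highest in unstimulated cells were Gabarap at 513 ± 16.3 (mean ± SD, n = 3) and Sqstm1 at 504 ± 20.7, which did not differ beyond their spread. Map1lc3b, which encodes the LC3 protein most used as a marker of autophagosomes, followed at 168 ± 10.4, and Gabarapl1 at 138 ± 22.2. Tax1bp1, Gabarapl2, Becn1 and Nbr1 lay between 63.3 ± 2.49 and 77.8 ± 5.20, and the lowest was Atg2b at 6.67 ± 0.370. Of the 36 pairs of neighbours in this order, 29 overlapped between libraries. The first 6 genes in the order were of the Atg8 family or cargo receptors, but the receptor Optn lay in the lower part of it.

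**Figure D1:**
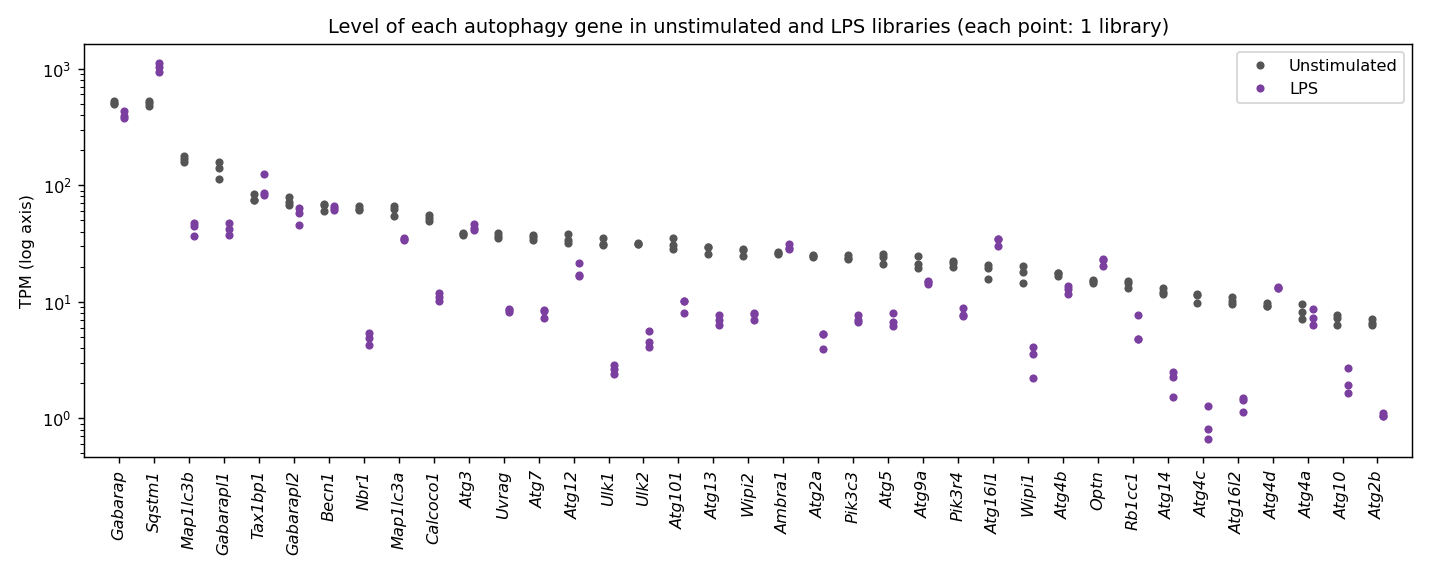
Level of each of the 37 autophagy genes in TPM (vertical log axis) in the 3 unstimulated and 3 LPS libraries, ordered by the unstimulated mean. Sqstm1 lies higher in LPS (1027 against 504 TPM on average), whereas Nbr1, Ulk1 and Atg4c lie far lower.

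After LPS the order changed. Sqstm1 reached 1027 ± 96.6 TPM and stood alone at the top, Gabarap was at 401 ± 30.1 and Map1lc3b at 42.7 ± 5.40. Nbr1, a receptor gene at the level of Becn1 in resting cells, was at 4.84 ± 0.590 TPM, and Ulk1 was at 2.64 ± 0.230. With LPS + JQ1 the Sqstm1 level was 1987 ± 241 TPM. Summed over the 37 genes, the level was 2302 ± 86.3 TPM in the unstimulated group, 2491 ± 68.5 in JQ1, 2352 ± 33.7 in IL-10, 2067 ± 75.3 in LPS, 3379 ± 226 in LPS + JQ1 and 1896 ± 21.4 in LPS + IL-10. The high sum in LPS + JQ1 libraries rested mostly on Sqstm1. TPM and the normalised counts used for all tests are on different scales.

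LPS was followed by a fall of most autophagy genes. Against unstimulated cells, 34 of the 37 passed the Wald test of DESeq2 at an adjusted p under 0.05, 12 of them higher and 22 lower, and the median log2 fold change was -0.94, against -0.07 over all genes tested. Such calls were common in this comparison, as 64.5% of the 14965 genes tested were called, 31.6% higher and 32.9% lower. The 12 rises are near that background. The scaling decided part of the split. When libraries were scaled to their total counts 4 genes were higher and 29 lower, and with limma on log2(TPM + 1) the numbers were 6 and 28. The 22 falls were kept with both. Of the 12 rises, those of Sqstm1, Atg16l1, Optn and Atg4d were kept with total counts, those of Ambra1, Atg3 and Tax1bp1 were not called, and those of Becn1, Atg4a, Atg4b, Gabarap and Gabarapl2 turned negative. With log2(TPM + 1) Ambra1 and Atg3 stayed called as well. Those scalings moved the median of 12251 well measured genes to -1.0 and -0.70, from -0.07. Relative to that median gene, 23 of the 37 autophagy genes lay lower with DESeq2, 23 with total counts and 24 with TPM.

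JQ1 alone was followed by a modest rise of most members. Of the 37, 28 were called, 27 higher and 1 lower, with a median of 0.43 against 0.00 over all genes, where 45.7% of 13686 genes were called, 21.9% higher and 23.7% lower. Total counts gave 18 higher and 3 lower, and log2(TPM + 1) gave 15 and 3. With total counts the rises of Rb1cc1, Ambra1, Wipi1, Atg2b, Atg3, Atg16l1, Calcoco1 and Tax1bp1 were not called and Gabarap turned negative, and with log2(TPM + 1) those of Atg5, Gabarapl1 and Gabarapl2 were lost too. Between LPS + JQ1 and LPS, 30 were called, 24 higher and 6 lower, with a median of 0.48 against -0.11, where 57.3% of 14326 genes were called, 24.4% higher and 32.9% lower. Total counts gave 30 higher and 2 lower, and log2(TPM + 1) gave 29 and 2, with the median gene at 0.28 and 0.17 in place of -0.10. Under each of these scalings 29 of the 37 lay above the median gene. The comparisons of LPS with unstimulated cells and of LPS + JQ1 with LPS use the same 3 LPS libraries, so an error in those libraries enters both with opposite sign, and their values are given side by side without a test of their likeness.

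IL-10 alone left none of the 37 called by DESeq2, edgeR or limma, and 4 had an unadjusted p under 0.05 in DESeq2, namely Ulk2, Atg3, Atg5 and Gabarap, with log2 fold changes of 0.10 to 0.23. In this comparison 2.81% of 12727 genes were called and 1218 had an unadjusted p under 0.05. The 4 of 37 at that unadjusted threshold are near this background. Between LPS + IL-10 and LPS, 7 were called, 6 higher and 1 lower, where 17.2% of 11448 genes were called, 8.38% higher and 8.81% lower. A share of 7 in 37 is near that background.

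**Figure D2:**
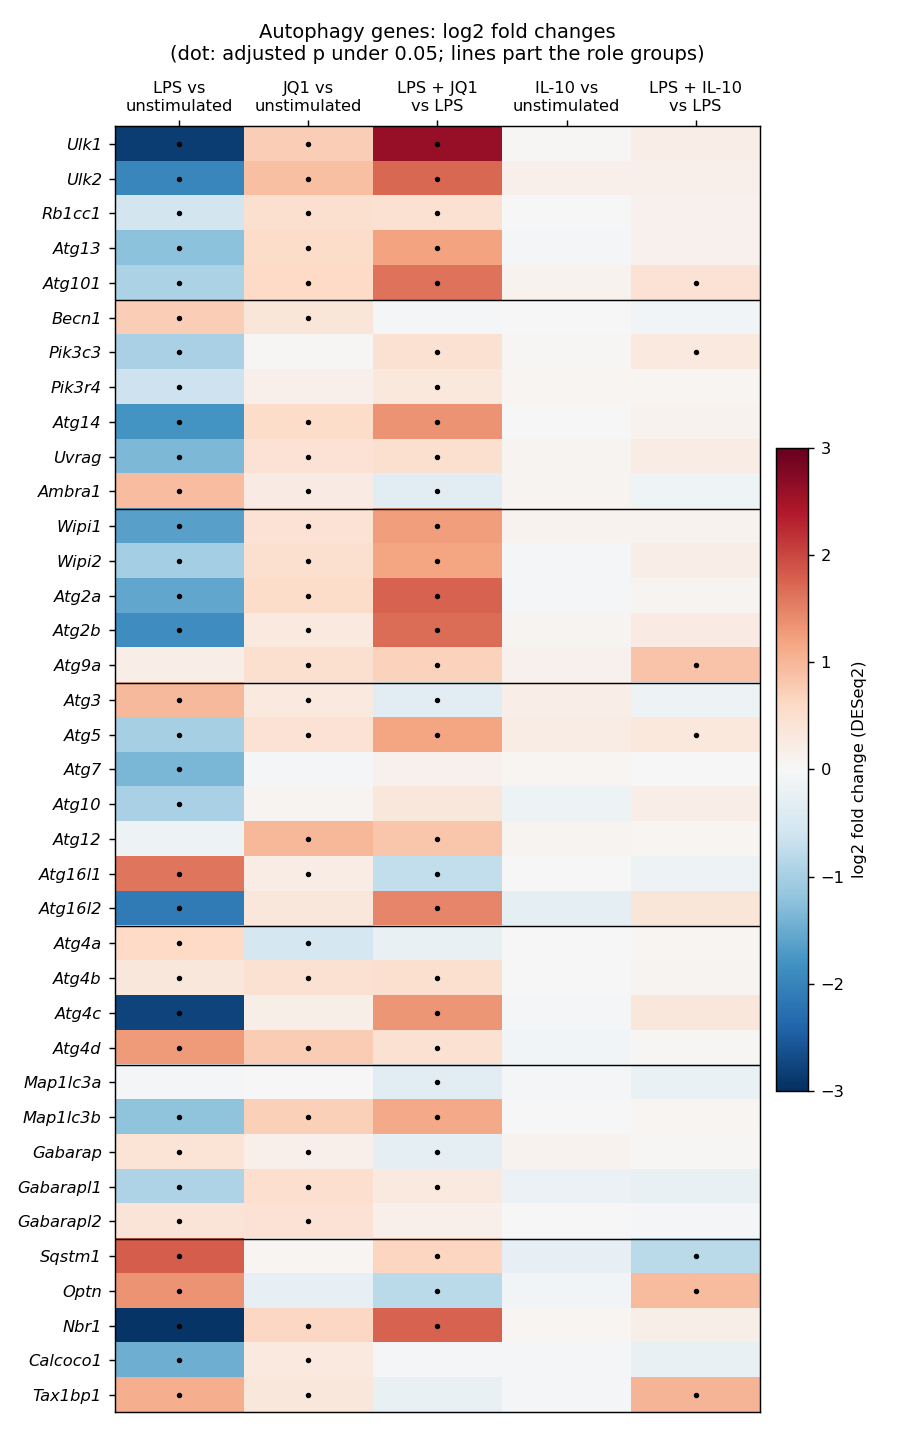
Log2 fold change (colour) of the 37 autophagy genes in 5 comparisons, by role group from the ULK complex at the top to the cargo receptors at the bottom, with a dot where the adjusted p was under 0.05. The LPS column is mostly blue, with red for the 12 genes called higher, strongest for Sqstm1, Atg16l1, Optn and Atg4d. The LPS + JQ1 column is mostly red, and the IL-10 column holds no dot.

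The ULK complex starts autophagy. All 5 of its genes fell with LPS and all 5 rose with JQ1 alone, Rb1cc1 not with total counts or log2(TPM + 1), and were higher in LPS + JQ1 than in LPS. Ulk1 (mm9 chr5:111213507-111239116, minus strand) encodes the kinase itself. Normalised counts of Ulk1 were 1122, 1349.6 and 1098 in the unstimulated libraries, 1930.3, 1959.7 and 2020.3 under JQ1 and 1222, 1336 and 1088 under IL-10. After LPS, Ulk1 was at 161, 182 and 152 without pretreatment, 1005, 1029.9 and 1019 after JQ1 and 180.0, 226 and 169 after IL-10. The LPS and LPS + IL-10 libraries lay far below all others. The LPS + JQ1 libraries came close to the unstimulated ones on normalised counts without overlapping them. On TPM the gap was wider, at 18.95 to 21.2 against 30.9 to 35.5. For Ulk1 the log2 fold change was -2.84 ± 0.12 (adjusted p = 8.7e-122) with LPS, 0.73 ± 0.10 (adjusted p = 1.04e-12) with JQ1 alone and 2.62 ± 0.12 (adjusted p = 4.23e-102) for LPS + JQ1 over LPS, where ± is the standard error. These are a 7.14-fold fall, a 1.66-fold rise and a 6.14-fold higher count, the last being the largest difference of any of the 37 genes in that comparison.

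Its paralog Ulk2 (mm9 chr11:61589151-61668575, minus strand) behaved alike at a similar level. Normalised counts of Ulk2 were 1276, 1345 and 1269 in the unstimulated libraries, 2500.2, 2374 and 2334 under JQ1 and 1452, 1524 and 1335 under IL-10. After LPS, Ulk2 was at 311, 318 and 365 without pretreatment, 1114, 1089 and 1104 after JQ1 and 374, 331 and 387 after IL-10. No LPS library overlapped an unstimulated or LPS + JQ1 library. For Ulk2 the log2 fold change was -1.96 ± 0.08 (adjusted p = 2.77e-124) with LPS, 0.89 ± 0.07 (adjusted p = 1.48e-38) with JQ1 alone and 1.73 ± 0.08 (adjusted p = 4.69e-94) for LPS + JQ1 over LPS. Atg13, the adaptor that links the kinase to its scaffold, was at 633, 754 and 703 in the unstimulated libraries, 1011, 1059.7 and 991 under JQ1 and 676, 679 and 673 under IL-10. After LPS, Atg13 was at 288, 297 and 303 without pretreatment, 666, 727 and 675 after JQ1 and 337, 347 and 293 after IL-10. On normalised counts the LPS + JQ1 libraries overlapped the unstimulated ones, whereas on TPM they lay below them, at 18.6 to 22.2 against 25.9 to 29.4. For Atg13 the log2 fold change was -1.22 ± 0.09 (adjusted p = 2.92e-41) with LPS, 0.56 ± 0.08 (adjusted p = 3.08e-12) with JQ1 alone and 1.22 ± 0.09 (adjusted p = 8.26e-40) for LPS + JQ1 over LPS. Atg101 encodes the partner that stabilises Atg13, and was at 211, 244 and 259 in the unstimulated libraries, 329, 376 and 378 under JQ1 and 242, 269.7 and 253 under IL-10. After LPS, Atg101 was at 140.0, 134 and 97.0 without pretreatment, 366, 374 and 406 after JQ1 and 145, 211 and 149.7 after IL-10. Here the LPS + JQ1 libraries lay above every unstimulated library on normalised counts, but on TPM the groups overlapped (33.4 to 38.3 against 28.4 to 34.96). For Atg101 the log2 fold change was -0.94 ± 0.15 (adjusted p = 1.86e-09) with LPS, 0.60 ± 0.13 (adjusted p = 3.81e-05) with JQ1 alone and 1.63 ± 0.15 (adjusted p = 2.05e-26) for LPS + JQ1 over LPS. The scaffold gene Rb1cc1 (FIP200) changed least, by -0.54 ± 0.17 (adjusted p = 0.0029) with LPS, 0.47 ± 0.17 (adjusted p = 0.0136) with JQ1 alone and 0.47 ± 0.17 (adjusted p = 0.0132) for LPS + JQ1 over LPS. Its JQ1 calls were lost when single libraries were left out, for JQ1 alone without unstimulated replicate 1 (adjusted p = 0.0693) or JQ1 replicate 1 (adjusted p = 0.0659). For LPS + JQ1 over LPS it was lost without LPS replicate 1 or 2 or LPS + JQ1 replicate 1 or 2 (adjusted p = 0.0536 to 0.0896).

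The class III PI3-kinase complex makes the lipid PI3P on the forming membrane. Of its 6 genes, 4 fell with LPS and 2 rose, Becn1 and Ambra1. Atg14 (mm9 chr14:48160569-48188109, minus strand) encodes the subunit that brings the complex to sites of autophagosome formation. Normalised counts of Atg14 were 288, 289 and 302 in the unstimulated libraries, 439, 433 and 410.3 under JQ1 and 319, 276 and 277 under IL-10. After LPS, Atg14 was at 66.5, 93.1 and 93.3 without pretreatment, 222, 221 and 208 after JQ1 and 79.8, 94.2 and 98.3 after IL-10. The LPS + JQ1 libraries lay between the LPS and unstimulated ones, with overlap with neither. For Atg14 the log2 fold change was -1.78 ± 0.14 (adjusted p = 1e-37) with LPS, 0.54 ± 0.10 (adjusted p = 7.2e-07) with JQ1 alone and 1.35 ± 0.14 (adjusted p = 1.65e-20) for LPS + JQ1 over LPS. Uvrag takes the place of Atg14 in another form of the complex that acts in endosomal and late autophagic traffic, and was at 916, 864 and 841 in the unstimulated libraries, 1180.5, 1242 and 1126 under JQ1 and 928, 939 and 916 under IL-10. After LPS, Uvrag was at 375, 339 and 318 without pretreatment, 502, 447 and 486 after JQ1 and 418, 372 and 403 after IL-10. For Uvrag the log2 fold change was -1.35 ± 0.08 (adjusted p = 7.08e-59) with LPS, 0.44 ± 0.07 (adjusted p = 4.5e-09) with JQ1 alone and 0.48 ± 0.09 (adjusted p = 1.69e-07) for LPS + JQ1 over LPS. Its fall with LPS and its difference between LPS + JQ1 and LPS were both smaller than those of Atg14. The catalytic subunit gene Pik3c3 changed by -0.98 ± 0.11 (adjusted p = 1.48e-19) with LPS and 0.45 ± 0.11 (adjusted p = 0.000112) for LPS + JQ1 over LPS and was not called with JQ1 alone (0.04 ± 0.10). Pik3r4, which encodes its regulatory subunit, changed by -0.63 ± 0.10 (adjusted p = 1.19e-10) with LPS and 0.31 ± 0.10 (adjusted p = 0.003) for LPS + JQ1 over LPS.

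Becn1, the scaffold of the complex and a partner of Bcl2, rose with LPS by 0.73 ± 0.06 (adjusted p = 8.06e-31), but this turned to -0.20 with total counts and -0.04 with log2(TPM + 1), and 3104 exonic bases of it overlap Cntd1 on the other strand, which the unstranded counting cannot separate. Ambra1, a Becn1 partner and substrate receptor of a ubiquitin ligase, changed by 0.94 ± 0.08 (adjusted p = 2.29e-28) with LPS, 0.26 ± 0.08 (adjusted p = 0.00627) with JQ1 alone and -0.32 ± 0.08 (adjusted p = 0.000274) for LPS + JQ1 over LPS, the last turning to 0.06 with total counts. With total counts the first 2 were 0.01 (adjusted p = 0.931) and 0.08 (adjusted p = 0.421), neither called. The JQ1 call of Ambra1 was lost without unstimulated replicate 3 (adjusted p = 0.0583). Becn1 was also called with JQ1 alone, at 0.36 ± 0.06 (adjusted p = 5.1e-08), and did not pass between LPS + JQ1 and LPS in DESeq2 (-0.04 ± 0.06). On TPM its LPS + JQ1 libraries lay above the LPS ones, at 74.1 to 78.1 against 61.0 to 65.95.

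The next step reads PI3P and feeds lipid into the membrane. Wipi1, Wipi2, Atg2a and Atg2b fell with LPS, rose with JQ1 alone and were higher in LPS + JQ1 than in LPS, while Atg9a, the scramblase, was not called with LPS (0.21 ± 0.11 (adjusted p = 0.0958)). With other scalings the rises with JQ1 alone of Wipi1 and Atg2b were not called, at 0.26 (adjusted p = 0.156) and 0.12 (adjusted p = 0.272) with total counts, and Atg9a was called lower with LPS, at -0.72 (adjusted p = 7.61e-11) with total counts and -0.54 (adjusted p = 1.6e-05) with log2(TPM + 1). Wipi2 encodes the PI3P reader that recruits Atg16l1, and was at 662, 778 and 747 in the unstimulated libraries, 978, 1026 and 1042 under JQ1 and 648, 705 and 771 under IL-10. After LPS, Wipi2 was at 394, 378 and 299.6 without pretreatment, 765, 859 and 821 after JQ1 and 426, 392 and 416 after IL-10. For Wipi2 the log2 fold change was -1.02 ± 0.10 (adjusted p = 4.69e-22) with LPS, 0.48 ± 0.10 (adjusted p = 2.51e-06) with JQ1 alone and 1.19 ± 0.10 (adjusted p = 4.71e-29) for LPS + JQ1 over LPS. Wipi1, its lower expressed paralog, was at 170.5, 250.3 and 209 in the unstimulated libraries, 265, 303 and 277 under JQ1 and 190.4, 241 and 246 under IL-10. After LPS, Wipi1 was at 48.1, 73.4 and 77.3 without pretreatment, 152, 155 and 174 after JQ1 and 70.4, 83.6 and 64.9 after IL-10. On normalised counts the LPS + JQ1 libraries of both genes overlapped the unstimulated ones. On TPM they lay below them, at 19.4 to 23.8 against 24.7 to 28.3 for Wipi2 and 8.87 to 10.5 against 14.6 to 20.3 for Wipi1. For Wipi1 the log2 fold change was -1.63 ± 0.19 (adjusted p = 2.06e-17) with LPS, 0.44 ± 0.16 (adjusted p = 0.0141) with JQ1 alone and 1.26 ± 0.19 (adjusted p = 2.85e-10) for LPS + JQ1 over LPS. The call of Wipi1 with JQ1 alone was lost without unstimulated replicate 1 (adjusted p = 0.135) or JQ1 replicate 2 (adjusted p = 0.0698).

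Atg2a and Atg2b encode the bridge proteins that carry lipid from the endoplasmic reticulum to the forming membrane. Normalised counts of Atg2a (mm9 chr19:6241668-6262335, plus strand) were 1099, 1181 and 1065 in the unstimulated libraries, 1589, 1679 and 1631 under JQ1 and 1039, 1124 and 1053 under IL-10. After LPS, Atg2a was at 435, 414 and 277 without pretreatment, 1373, 1148 and 1302 after JQ1 and 402, 456 and 338 after IL-10. The LPS + JQ1 libraries lay above every LPS library and on normalised counts overlapped the unstimulated ones. On TPM they lay below the unstimulated ones, at 19.3 to 21.1 against 24.4 to 25.3. For Atg2a the log2 fold change was -1.57 ± 0.13 (adjusted p = 1.7e-32) with LPS, 0.55 ± 0.12 (adjusted p = 3.37e-05) with JQ1 alone and 1.76 ± 0.13 (adjusted p = 2.21e-40) for LPS + JQ1 over LPS. Normalised counts of Atg2b were 511, 499 and 450.5 in the unstimulated libraries, 608, 618 and 564 under JQ1 and 538, 512 and 488 under IL-10. After LPS, Atg2b was at 139, 131 and 128 without pretreatment, 448, 423 and 387 after JQ1 and 152, 167 and 152 after IL-10. All LPS + JQ1 values lay just under the unstimulated ones on normalised counts and further below them on TPM, at 3.84 to 4.38 against 6.36 to 7.08. For Atg2b the log2 fold change was -1.87 ± 0.11 (adjusted p = 3.21e-60) with LPS, 0.30 ± 0.09 (adjusted p = 0.00197) with JQ1 alone and 1.67 ± 0.12 (adjusted p = 8.57e-46) for LPS + JQ1 over LPS. Atg9a, which spreads incoming lipid between the leaflets, rose with JQ1 alone by 0.48 ± 0.11 (adjusted p = 5.25e-05) and was higher in LPS + JQ1 than in LPS by 0.70 ± 0.11 (adjusted p = 8.38e-10).

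The conjugation genes attach Atg8 proteins to the membrane lipid, and they did not move together. With LPS, 4 of the 7 fell (Atg5, Atg7, Atg10 and Atg16l2), 2 rose (Atg3, not called with total counts, and Atg16l1) and Atg12 was not called. Atg16l1 (mm9 chr1:89652445-89689003, plus strand) encodes the scaffold that places the conjugation machinery on the membrane and that also serves the phagocytosis of microbes by macrophages. Normalised counts of Atg16l1 were 429, 342 and 399 in the unstimulated libraries, 469, 438 and 483 under JQ1 and 396, 390.3 and 385 under IL-10. After LPS, Atg16l1 was at 1174, 1262 and 1165 without pretreatment, 713, 723 and 736 after JQ1 and 1154, 1078 and 1029.6 after IL-10. The LPS + JQ1 libraries lay between the unstimulated and the LPS ones, overlapping neither. For Atg16l1 the log2 fold change was 1.60 ± 0.08 (adjusted p = 8.89e-88) with LPS, a 3.04-fold rise, and -0.73 ± 0.08 (adjusted p = 8.25e-21) for LPS + JQ1 over LPS. With JQ1 alone it was 0.23 ± 0.08 (adjusted p = 0.0174), a call lost without unstimulated replicate 2 or 3 or JQ1 replicate 1 or 3 (adjusted p = 0.0509 to 0.11).

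Its paralog Atg16l2 went the other way. Normalised counts of Atg16l2 were 136, 166 and 143 in the unstimulated libraries, 199.8, 175 and 179 under JQ1 and 106, 117 and 138 under IL-10. After LPS, Atg16l2 was at 39.6, 36.2 and 25.8 without pretreatment, 88.3, 84.2 and 108 after JQ1 and 44.7, 54.7 and 35.2 after IL-10. For Atg16l2 the log2 fold change was -2.12 ± 0.22 (adjusted p = 4.94e-22) with LPS and 1.47 ± 0.22 (adjusted p = 2.77e-10) for LPS + JQ1 over LPS, and it was not called with JQ1 alone (0.34 ± 0.16 (adjusted p = 0.0703)). Its JQ1 libraries lay above the unstimulated ones on normalised counts but overlapped them on TPM (10.2 to 12.3 against 9.56 to 11.1). After LPS the 2 paralogs thus stood 4.33-fold lower and 3.04-fold higher. Atg5, which joins Atg12 in the ligase, was at 379, 350.1 and 399.5 in the unstimulated libraries, 533, 502 and 498 under JQ1 and 454, 446 and 431 under IL-10. After LPS, Atg5 was at 179.6, 187 and 203 without pretreatment, 449, 447 and 388 after JQ1 and 233, 240.2 and 233 after IL-10. For Atg5 the log2 fold change was -1.0 ± 0.10 (adjusted p = 7.93e-22) with LPS, 0.43 ± 0.09 (adjusted p = 2.89e-06) with JQ1 alone and 1.17 ± 0.10 (adjusted p = 3.48e-29) for LPS + JQ1 over LPS. Atg7, the enzyme that activates both Atg12 and the Atg8 proteins, was at 871, 976 and 951 in the unstimulated libraries, 847, 954 and 944 under JQ1 and 942, 984 and 982 under IL-10. After LPS, Atg7 was at 345, 387 and 344 without pretreatment, 383, 437 and 362 after JQ1 and 364, 362 and 353 after IL-10. The libraries with LPS overlapped one another whatever the pretreatment. For Atg7 the log2 fold change was -1.37 ± 0.09 (adjusted p = 1.33e-52) with LPS, and Atg7 was not called with JQ1 alone (-0.02 ± 0.08) or between LPS + JQ1 and LPS (0.14 ± 0.10).

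Of the other conjugation genes, Atg3 and Atg10 changed with LPS about as much as Atg5 in DESeq2, Atg3 upward and Atg10 downward, and Atg12 changed less. Atg3, the enzyme that hands Atg8 proteins to the lipid, changed by 0.98 ± 0.08 (adjusted p = 1.03e-33) with LPS, 0.30 ± 0.08 (adjusted p = 0.000745) with JQ1 alone and -0.35 ± 0.08 (adjusted p = 2.54e-05) for LPS + JQ1 over LPS, the last turning to 0.03 with total counts. With total counts the first 2 were 0.05 (adjusted p = 0.593) and 0.12 (adjusted p = 0.217), neither called. Atg12, the ubiquitin-like partner of Atg5, had the largest change of the 37 with JQ1 alone, 1.00 ± 0.08 (adjusted p = 2.15e-33), and was higher in LPS + JQ1 than in LPS by 0.83 ± 0.08 (adjusted p = 1.1e-21), while its change with LPS did not pass in DESeq2 (-0.15 ± 0.09 (adjusted p = 0.136)). It was called lower with LPS by edgeR at -0.21 (adjusted p = 0.0241), with total counts at -1.07 (adjusted p = 2.26e-30) and with log2(TPM + 1) at -0.89 (adjusted p = 6.55e-07). Atg10, the enzyme that conjugates Atg12, changed by -0.98 ± 0.23 (adjusted p = 4.36e-05) with LPS and was in no other of the first 5 comparisons called.

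The Atg4 proteases trim new Atg8 proteins and release them from the membrane, and each of the 4 genes had its own pattern. Atg4c (mm9 chr4:98860625-98926478, plus strand) was at 205, 252 and 233 in the unstimulated libraries, 244, 268 and 258 under JQ1 and 218, 213 and 223 under IL-10. After LPS, Atg4c was at 32.5, 23.8 and 44.2 without pretreatment, 78.4, 95.8 and 72.6 after JQ1 and 42.0, 31.9 and 48.7 after IL-10. Counts in LPS libraries were low, and none overlapped an unstimulated or LPS + JQ1 library. For Atg4c the log2 fold change was -2.79 ± 0.20 (adjusted p = 1.24e-43) with LPS, a 6.89-fold fall, and 1.32 ± 0.21 (adjusted p = 3.02e-09) for LPS + JQ1 over LPS, and it was not called with JQ1 alone (0.17 ± 0.13). Atg4d was at 199, 199.6 and 184 in the unstimulated libraries, 329.5, 334 and 326 under JQ1 and 178, 192 and 182 under IL-10. After LPS, Atg4d was at 498, 482 and 429.7 without pretreatment, 696, 638 and 611 after JQ1 and 549, 462 and 433 after IL-10. Both treatments were followed by higher counts, and the LPS + JQ1 libraries were the highest. For Atg4d the log2 fold change was 1.28 ± 0.11 (adjusted p = 3.75e-31) with LPS, 0.77 ± 0.11 (adjusted p = 2.06e-11) with JQ1 alone and 0.47 ± 0.10 (adjusted p = 6.63e-06) for LPS + JQ1 over LPS. Its reads were partly divided with other genes by the estimator in all 18 libraries, and 791 exonic bases overlap Kri1 on the other strand, so its counts are uncertain. Atg4b, the main protease of the family, changed by 0.34 ± 0.09 (adjusted p = 0.000114) with LPS (turning to -0.59 with total counts), 0.46 ± 0.08 (adjusted p = 1.12e-07) with JQ1 alone and 0.48 ± 0.08 (adjusted p = 1.67e-08) for LPS + JQ1 over LPS. Atg4a was the 1 member called lower with JQ1 alone by DESeq2, at -0.53 ± 0.17 (adjusted p = 0.00433), a call lost without unstimulated replicate 3 (adjusted p = 0.0606). Members called lower there numbered 2 with edgeR, 3 with total counts and 3 with log2(TPM + 1). Atg4a reads were partly divided with other genes in 15 of the 18 libraries. With LPS Atg4a changed by 0.61 ± 0.16 (adjusted p = 0.000269), turning to -0.32 with total counts.

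The Atg8 genes encode the small proteins that coat the autophagosome. Map1lc3b (mm9 chr8:124114368-124121947, plus strand) moved with the ULK genes, whereas with DESeq2 scaling Gabarap and Gabarapl2 did not. Normalised counts of Map1lc3b were 1729, 1945 and 1935 in the unstimulated libraries, 3056, 3034 and 3048 under JQ1 and 1831, 1938 and 1839 under IL-10. After LPS, Map1lc3b was at 744, 909.9 and 781 without pretreatment, 1763, 1772 and 1821 after JQ1 and 846, 935 and 779.9 after IL-10. The 3 JQ1 libraries lay above all others, and on normalised counts the LPS + JQ1 libraries overlapped the unstimulated ones. On TPM the LPS + JQ1 libraries lay below the unstimulated ones, at 109.7 to 119.9 against 158 to 178.9. For Map1lc3b the log2 fold change was -1.20 ± 0.08 (adjusted p = 7.29e-50) with LPS, 0.71 ± 0.07 (adjusted p = 6.45e-20) with JQ1 alone and 1.13 ± 0.08 (adjusted p = 6.96e-44) for LPS + JQ1 over LPS. Gabarapl1 changed by -0.92 ± 0.12 (adjusted p = 1.64e-14) with LPS, 0.50 ± 0.11 (adjusted p = 5.98e-05) with JQ1 alone and 0.29 ± 0.12 (adjusted p = 0.0304) for LPS + JQ1 over LPS. The last call was lost without LPS replicate 1 or 2 or LPS + JQ1 replicate 2 or 3 (adjusted p = 0.052 to 0.144).

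Gabarap rose with LPS by 0.42 ± 0.04 (adjusted p = 5.91e-30) and with JQ1 alone by 0.15 ± 0.04 (adjusted p = 0.000116), and was lower in LPS + JQ1 than in LPS by -0.27 ± 0.04 (adjusted p = 7.54e-13), and these 3 directions turned with total counts (-0.51, -0.03 and 0.11). Gabarapl2 changed by 0.38 ± 0.09 (adjusted p = 9.26e-05) with LPS, turning to -0.55 (adjusted p = 4.23e-08) with total counts, and by 0.44 ± 0.09 (adjusted p = 4.18e-06) with JQ1 alone. DESeq2 did not call Gabarapl2 between LPS + JQ1 and LPS. On TPM its LPS + JQ1 libraries lay above the LPS ones, at 71.3 to 79.1 against 45.95 to 63.3, so its difference from the ULK genes depended on the scaling. Map1lc3a, not called with LPS in DESeq2 but lower with total counts (-0.95 (adjusted p = 2.66e-14)), was called by DESeq2 for LPS + JQ1 over LPS, at -0.33 ± 0.13 (adjusted p = 0.0228), which turned to 0.04 with total counts and was lost without LPS replicate 1 or 2 or LPS + JQ1 replicate 1 or 2 (adjusted p = 0.0526 to 0.109). The make-up of the family, which does not depend on library scaling, also differed between groups. Map1lc3b was 17.7% ± 0.21 of the summed TPM of the 5 genes in unstimulated libraries, 22.9% ± 0.30 under JQ1 and 17.3% ± 0.29 under IL-10. After LPS it was 7.41% ± 0.69 without pretreatment, 16.6% ± 0.07 after JQ1 and 7.80% ± 0.63 after IL-10, and the LPS values lay below all of the unstimulated and LPS + JQ1 values. Gabarap was 53.9% ± 1.92 of the sum in unstimulated libraries, 69.6% ± 1.07 in LPS, 58.6% ± 0.59 in LPS + JQ1 and 71.1% ± 1.56 in LPS + IL-10 libraries (SD, n = 3).

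The cargo receptors split into 2 sets. With LPS, Sqstm1, Optn and, in DESeq2 and edgeR only, Tax1bp1 rose and Nbr1 and Calcoco1 fell. Nbr1 (mm9 chr11:101413463-101443265, plus strand) encodes a receptor of ubiquitinated cargo that partners with p62. Normalised counts of Nbr1 were 1960.2, 2099 and 2078 in the unstimulated libraries, 3059, 3240.2 and 3109 under JQ1 and 2183, 2169.9 and 2037 under IL-10. After LPS, Nbr1 was at 288, 236 and 276 without pretreatment, 896, 885 and 939 after JQ1 and 277, 289 and 322 after IL-10. For Nbr1 the log2 fold change was -2.95 ± 0.08 (adjusted p = 3.45e-283) with LPS, 0.62 ± 0.06 (adjusted p = 9.01e-23) with JQ1 alone and 1.77 ± 0.08 (adjusted p = 2.84e-95) for LPS + JQ1 over LPS, and its 7.71-fold fall was the deepest of the 37. Calcoco1, a receptor for parts of the endoplasmic reticulum and Golgi, was at 944, 1118 and 970.0 in the unstimulated libraries, 1119.9, 1293 and 1271 under JQ1 and 909, 998 and 991 under IL-10. After LPS, Calcoco1 was at 355, 397 and 335 without pretreatment, 334, 340.1 and 379 after JQ1 and 342, 313 and 282 after IL-10. On normalised counts the libraries with LPS overlapped one another for each pretreatment. On TPM the LPS + JQ1 libraries lay just above the LPS ones, at 11.97 to 14.2 against 10.1 to 11.9. For Calcoco1 the log2 fold change was -1.47 ± 0.10 (adjusted p = 1.87e-45) with LPS and 0.29 ± 0.09 (adjusted p = 0.00607) with JQ1 alone, the second being lost without unstimulated replicate 1 (adjusted p = 0.0567), and it was not called between LPS + JQ1 and LPS (-0.05 ± 0.11).

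Sqstm1 (mm9 chr11:50012868-50024329, minus strand) encodes p62, which binds ubiquitinated cargo and LC3 and is also a hub of stress signalling. Normalised counts of Sqstm1 were 6319, 7252 and 6565 in the unstimulated libraries, 7171, 7094 and 6698 under JQ1 and 5256, 6156 and 5574 under IL-10. After LPS, Sqstm1 was at 25055, 25925 and 19525 without pretreatment, 42059.6, 36416 and 31752 after JQ1 and 17493, 12488 and 10439 after IL-10. The 3 groups with LPS did not overlap, with LPS + JQ1 at the top and LPS + IL-10 at the bottom. For Sqstm1 the log2 fold change was 1.81 ± 0.15 (adjusted p = 4.5e-31) with LPS, 0.64 ± 0.15 (adjusted p = 7.52e-05) for LPS + JQ1 over LPS and -0.80 ± 0.15 (adjusted p = 4e-06) for LPS + IL-10 over LPS, and it was not called with JQ1 alone (0.06 ± 0.15). Of its exons, 580 bases overlap 3010026O09Rik on the other strand.

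Optn (mm9 chr2:4941688-4985097, minus strand), the gene of optineurin, a receptor for bacteria and mitochondria, was at 234, 254 and 242 in the unstimulated libraries, 205, 214 and 198 under JQ1 and 209.7, 219.8 and 261 under IL-10. After LPS, Optn was at 602, 637 and 593 without pretreatment, 358, 321 and 374 after JQ1 and 1118, 1134 and 1270.4 after IL-10. The order in the groups with LPS was the reverse of that of Sqstm1, again with no overlap. For Optn the log2 fold change was 1.34 ± 0.10 (adjusted p = 1.78e-38) with LPS, -0.80 ± 0.10 (adjusted p = 4.27e-15) for LPS + JQ1 over LPS and 0.94 ± 0.09 (adjusted p = 1.11e-22) for LPS + IL-10 over LPS, and it was not called with JQ1 alone (-0.24 ± 0.11 (adjusted p = 0.068)). Tax1bp1, a receptor for bacteria and protein aggregates that also curbs NF-kB signalling, was at 1679, 1745 and 1839 in the unstimulated libraries, 2347, 2054 and 2272 under JQ1 and 1846, 1717 and 1613 under IL-10. After LPS, Tax1bp1 was at 3427, 3362 and 4484 without pretreatment, 3152, 3542 and 2953 after JQ1 and 6482, 7328 and 8976 after IL-10. Each LPS + IL-10 library lay above each LPS library, while LPS + JQ1 and LPS libraries overlapped. For Tax1bp1 the log2 fold change was 1.10 ± 0.13 (adjusted p = 7.43e-18) with LPS, 1.02 ± 0.12 (adjusted p = 2.24e-14) for LPS + IL-10 over LPS and 0.34 ± 0.13 (adjusted p = 0.0163) with JQ1 alone, the last being lost without unstimulated replicate 1 or JQ1 replicate 1 or 3 (adjusted p = 0.0532 to 0.0738). The rise of Tax1bp1 with LPS was not called with total counts (0.17 (adjusted p = 0.245)) or log2(TPM + 1) (0.31 (adjusted p = 0.0845)). Tax1bp1 was not called between LPS + JQ1 and LPS (-0.22 ± 0.12).

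**Figure D3:**
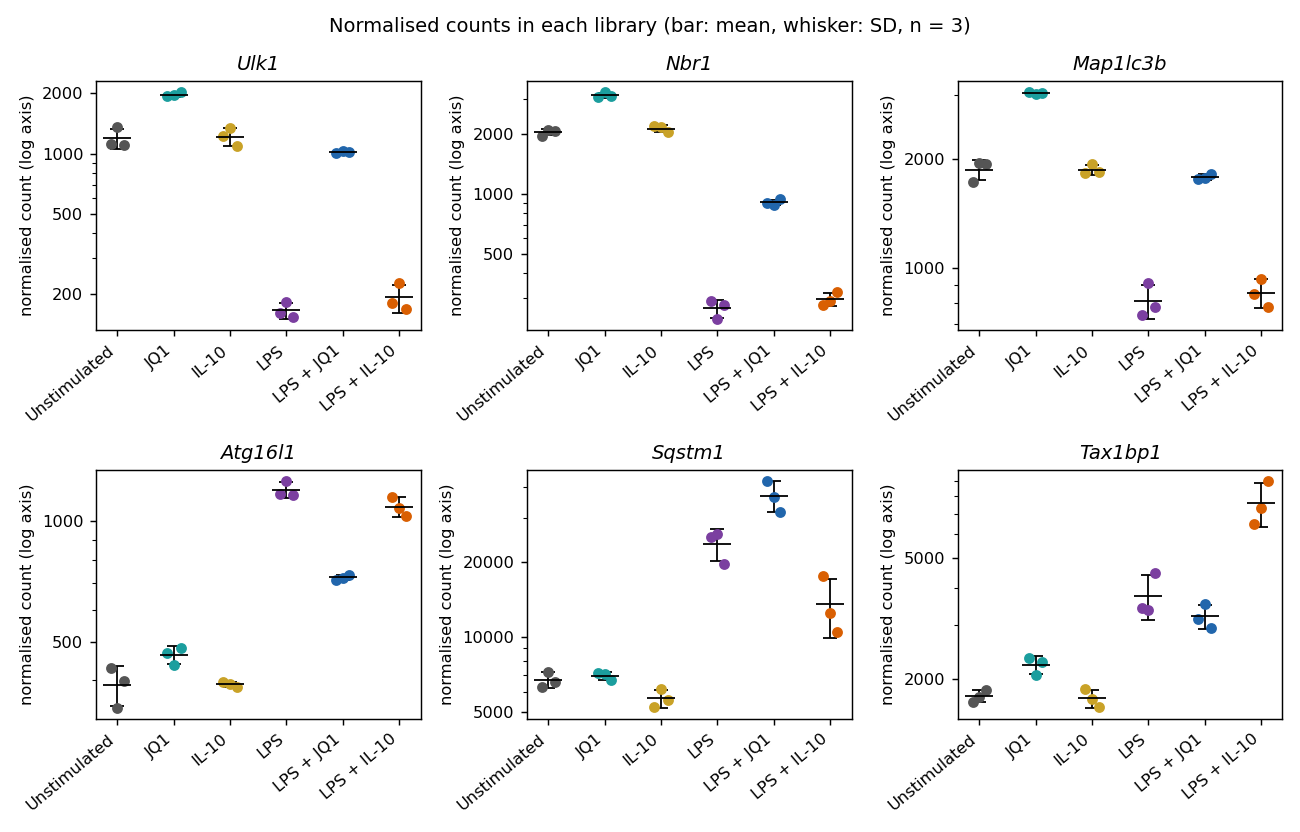
Normalised count in each of the 18 libraries (log axis) of 6 autophagy genes, with the mean and SD of each group of 3. Ulk1, Nbr1 and Map1lc3b are lowest in LPS and LPS + IL-10 libraries and higher in LPS + JQ1 libraries. Atg16l1 is highest in LPS and LPS + IL-10 libraries, Sqstm1 in LPS + JQ1 and Tax1bp1 in LPS + IL-10 libraries.

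Whether the JQ1 effect differed with and without LPS was tested as an interaction. Of the 37 genes, 25 were called, 16 with a more positive JQ1 effect in the presence of LPS and 9 with a more negative one, where 41.5% of 12727 genes were called, 17.7% positive and 23.8% negative. The 9 negative calls are near that background. Total counts gave 24 positive and 1 negative, and log2(TPM + 1) gave 23 and 1, as those scalings moved the median gene to 0.51 and 0.39 from -0.05. For Ulk1 the interaction was 1.88 ± 0.16 (adjusted p = 1.12e-31), the largest of the 37. It was 1.37 ± 0.14 (adjusted p = 1.21e-19) for Atg2b, 1.21 ± 0.18 (adjusted p = 1.87e-10) for Atg2a and 1.16 ± 0.10 (adjusted p = 1.02e-26) for Nbr1. All 4 genes had fallen with LPS, a comparison whose libraries also enter the interaction. The most negative was Atg16l1 at -0.96 ± 0.11 (adjusted p = 7.83e-16). Other negative values were -0.65 ± 0.11 (adjusted p = 7.48e-08) for Atg3, -0.58 ± 0.12 (adjusted p = 6.06e-06) for Ambra1, -0.57 ± 0.15 (adjusted p = 0.000563) for Optn and -0.57 ± 0.18 (adjusted p = 0.00456) for Tax1bp1, which with total counts were -0.09, -0.02, -0.01 and -0.02 and no longer called. Of the 9 negative calls, Atg16l1 was the 1 kept with total counts and with log2(TPM + 1), and all 16 positive ones were kept with both. Across the 37 genes the JQ1 fold changes without and with LPS, which share no library, had r = 0.60 and rho = 0.64, as a description over genes that are not independent replicates. The JQ1 fold change was more positive with LPS in 23 genes and less positive in 14.

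**Figure D4:**
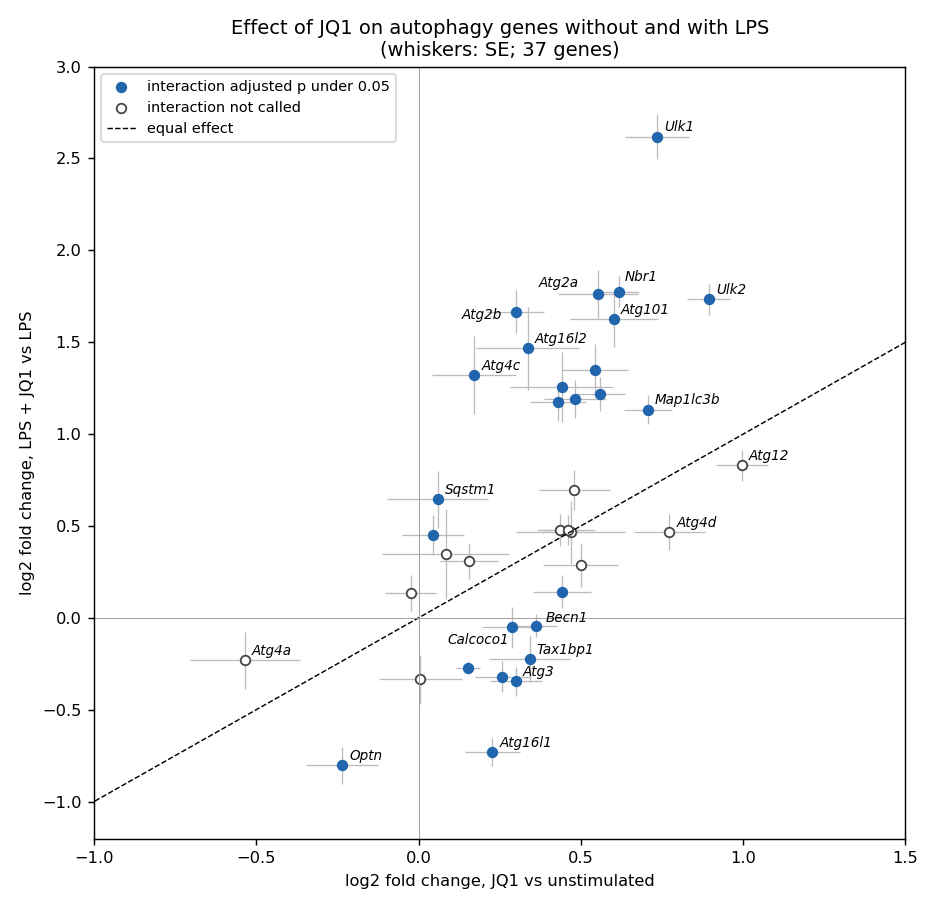
Log2 fold change of each of the 37 autophagy genes for JQ1 against unstimulated cells (horizontal) and for LPS + JQ1 against LPS (vertical), with standard errors, filled where the interaction had an adjusted p under 0.05. Ulk1, Nbr1, Atg2a, Atg2b and Atg101 lie well above the dashed line of equal effect, while Atg16l1, Optn, Atg3 and Tax1bp1 lie below it, the last 3 not called with total counts.

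For IL-10 the differences lay in a few genes and in LPS-stimulated cells. With IL-10 alone, normalised counts of all 37 lay within a log2 fold change of -0.30 to 0.23 of unstimulated cells. Of the 7 genes called between LPS + IL-10 and LPS, 4 kept their call whichever library was left out. They were Optn and Tax1bp1, 1.92-fold and 2.02-fold higher, Atg9a, 1.80-fold higher, and Sqstm1, 1.74-fold lower. Normalised counts of Atg9a were 657, 548 and 554 in the unstimulated libraries, 813, 853 and 795 under JQ1 and 682, 648 and 603 under IL-10. After LPS, Atg9a was at 745, 693 and 599 without pretreatment, 1193, 1013 and 1091 after JQ1 and 1253, 1349.8 and 1062 after IL-10. For Atg9a the log2 fold change was 0.84 ± 0.11 (adjusted p = 7.01e-13) for LPS + IL-10 over LPS, so that both pretreatments left Atg9a above its LPS level, with overlap between them. The other 3 were near the threshold, at 0.43 ± 0.16 (adjusted p = 0.0421) for Atg101, 0.30 ± 0.11 (adjusted p = 0.0457) for Pik3c3 and 0.31 ± 0.11 (adjusted p = 0.0368) for Atg5. The Atg101 call was lost without any of 10 of the 18 libraries (adjusted p up to 0.409, without LPS + IL-10 replicate 2), that of Pik3c3 without any of 15, and that of Atg5 without LPS replicate 1 or 2 or any LPS + IL-10 replicate (adjusted p up to 0.139). The ULK kinases, Map1lc3b and Nbr1, which were higher in LPS + JQ1, were not called here, at 0.19 ± 0.14 for Ulk1, 0.14 ± 0.09 for Ulk2, 0.06 ± 0.08 for Map1lc3b and 0.17 ± 0.10 for Nbr1. With the replicate number as a block, Gabarapl1 was called lower in LPS + IL-10 at -0.21 (adjusted p = 0.0439), which it was not without the block (adjusted p = 0.262).

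The interaction of IL-10 with LPS was called for 4 genes, 3 positive and 1 negative, where 7.44% of 10808 genes were called, 4.0% positive and 3.44% negative. It was 1.04 ± 0.18 (adjusted p = 3.95e-07) for Tax1bp1, 1.03 ± 0.14 (adjusted p = 3.58e-11) for Optn and 0.71 ± 0.15 (adjusted p = 0.000173) for Atg9a. For Atg3 it was -0.36 ± 0.11 (adjusted p = 0.0184), a call lost with total counts (adjusted p = 0.126) and without unstimulated replicate 3, IL-10 replicate 1 or 2, LPS replicate 1 or LPS + IL-10 replicate 2 (adjusted p = 0.0693 to 0.118). For Sqstm1 the interaction was -0.56 ± 0.22 (adjusted p = 0.109).

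Compared directly in LPS-stimulated cells, JQ1 and IL-10 left the autophagy genes at different levels. Of the 37, 27 were called between LPS + JQ1 and LPS + IL-10, 21 higher and 6 lower with JQ1, where 55.3% of 14326 genes were called, 23.8% higher and 31.6% lower. Total counts gave 27 higher and 3 lower, and edgeR gave 27 and 4. The ratio was 5.37-fold for Ulk1 (2.43 ± 0.12 (adjusted p = 2.13e-91)), 3.21-fold for Atg2a (1.68 ± 0.13 (adjusted p = 4.04e-37)) and 3.03-fold for Nbr1 (1.60 ± 0.08 (adjusted p = 1.16e-81)). Receptors lay at both ends. Sqstm1 was 2.73-fold higher with JQ1 (1.45 ± 0.15 (adjusted p = 4.27e-20)), whereas Optn was 3.36-fold lower (-1.75 ± 0.10 (adjusted p = 3.44e-72)) and Tax1bp1 2.36-fold lower (-1.24 ± 0.12 (adjusted p = 1.68e-22)). Of the summed TPM of the 5 receptors, Sqstm1 was 92.8% ± 0.91 in LPS + JQ1 and 69.2% ± 8.17 in LPS + IL-10 libraries, against 88.2% ± 2.86 in LPS and 70.7% ± 0.80 in unstimulated ones. Tax1bp1 was 4.83% ± 0.62, 23.9% ± 6.98, 8.52% ± 2.56 and 10.9% ± 0.71 in the same order, and Optn 0.74% ± 0.13, 5.09% ± 1.01, 1.90% ± 0.19 and 2.11% ± 0.04 (SD, n = 3).

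**Figure D5:**
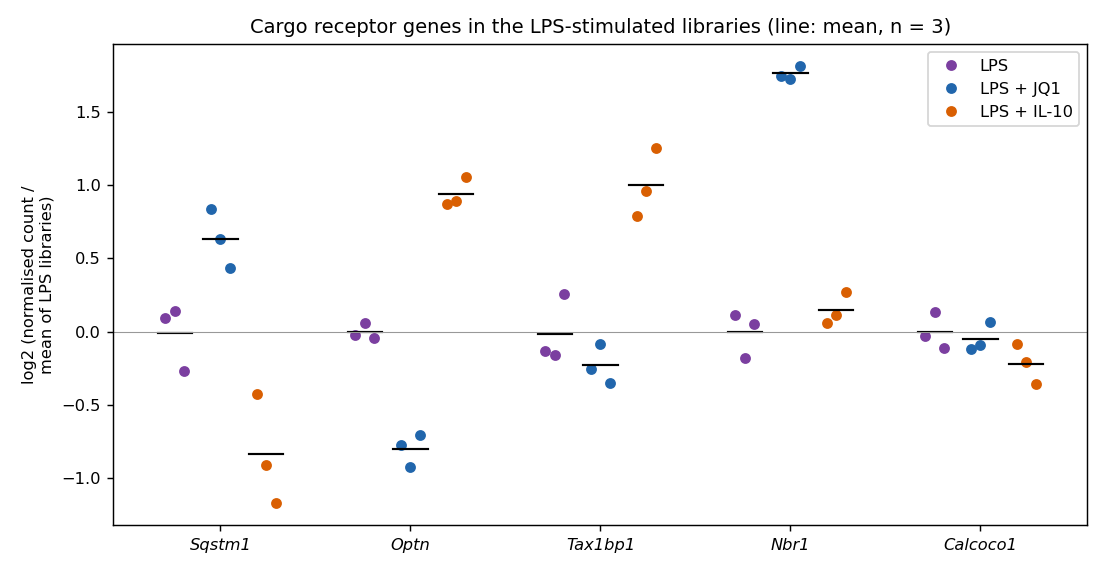
Normalised counts of the 5 cargo receptor genes in the 9 LPS-stimulated libraries, on a log2 scale relative to the mean of the LPS libraries, with a line at each group's mean. Sqstm1 is highest with LPS + JQ1 and lowest with LPS + IL-10, Optn is the reverse, Tax1bp1 is highest with LPS + IL-10 and Nbr1 with LPS + JQ1.

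Other genes of the pathway, from 4 lists of 49 genes of which 48 could be tested, moved partly alike. With LPS 13 rose and 28 fell, with JQ1 alone 24 rose and 6 fell, with IL-10 alone 1 rose, between LPS + JQ1 and LPS 24 were higher and 11 lower, and between LPS + IL-10 and LPS 9 were higher and 2 lower. Over all genes the shares called were 31.6% higher and 32.9% lower with LPS, 21.9% and 23.7% with JQ1 alone, 1.80% and 1.01% with IL-10 alone, 24.4% and 32.9% for LPS + JQ1 against LPS and 8.38% and 8.81% for LPS + IL-10 against LPS. The 13 rises with LPS and the 11 calls for LPS + IL-10 against LPS are near that background. Among 5 transcription factors of the pathway 4 fell with LPS, and Tfeb, the regulator of lysosomal and autophagy genes, was among them. Normalised counts of Tfeb were 862, 984 and 860.0 in unstimulated cells and 67.9, 57.9 and 40.5 with LPS, a log2 fold change of -4.03 ± 0.18 (adjusted p = 8.07e-108). With JQ1 alone 2 of the 5 factors rose and 2 fell, Tfeb among the latter at -0.76 ± 0.14 (adjusted p = 2.26e-07). There 27 core autophagy genes were higher and 1 lower with DESeq2, and 18 and 3 with total counts. Tfeb was higher in LPS + JQ1 than in LPS by 0.97 ± 0.20 (adjusted p = 2.97e-06). In LPS + IL-10 it was higher than in LPS by 1.11 ± 0.20 (adjusted p = 5.15e-07). In that comparison 6 core autophagy genes were higher and 1 lower. The part of Tfeb in the changes of these genes was not tested. With LPS, Sesn1, an inhibitor of mTORC1 signalling, had the deepest fall, from 1759, 2008 and 1985 to 62.2, 55.8 and 79.8, at -4.87 ± 0.13 (adjusted p = 3.46e-284). The largest rises were of Irgm1, an interferon-inducible GTPase tied to autophagy, at 5.18 ± 0.21 (adjusted p = 1.57e-138), and of Tbk1, the kinase that phosphorylates optineurin and p62, at 1.85 ± 0.07 (adjusted p = 8.36e-138). Between LPS + JQ1 and LPS, Irgm1 was lower by -1.99 ± 0.20 (adjusted p = 7.99e-22) and the transcription factor Mitf by -2.20 ± 0.08 (adjusted p = 8.35e-168). Sesn2, another mTORC1 inhibitor, was higher by 2.82 ± 0.17 (adjusted p = 5.62e-62) and Foxo3 by 2.32 ± 0.14 (adjusted p = 1.3e-56). Among 16 genes of mTORC1, AMPK and nutrient sensing, 10 fell and 3 rose with LPS, and 11 were higher and 2 lower in LPS + JQ1 than in LPS. Of 15 genes for fusion of the autophagosome with the lysosome, 10 fell and 4 rose with LPS, and 7 were higher and 4 lower in LPS + JQ1 than in LPS. With total-count scaling, 6 of the 13 rises with LPS and 2 of the 24 with JQ1 alone changed sign, as did 2 of the 11 lower values in LPS + JQ1 against LPS. IL-10 alone was followed by a rise of Wdfy3, which encodes a scaffold for the autophagy of protein aggregates, by 0.29 ± 0.04 (adjusted p = 1.61e-08).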

How the data were processed

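RNA-seq libraries of 18 BMDM samples in 6 groups of 3 were analysed, with group and replicate taken from the sample titles. No source used here states that a replicate number is the same mouse in every group. Per the study's methods the authors depleted ribosomal RNA, made stranded libraries and read them as paired ends, with alignment to mm9 by STAR and gene quantification by RSEM 1.2.31, whose default settings do not use strand. The methods name a vehicle control before LPS where the labels say untreated. The deposited expected counts are RSEM estimates in which ambiguous reads are divided among genes. Between 5.40% and 6.63% of a library's genes had a value that was not whole, and all were rounded for testing. The deposited TPM values were scaled by the authors to gene length and library, and the deposited effective lengths served as an offset in 1 alternative. FPKM was left aside.

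DESeq2 1.42.0 (R 4.3.3, Wald test, median-of-ratios, default independent filtering) was fitted to all 24485 genes and 18 libraries by group, with Benjamini-Hochberg adjustment over all genes tested and a threshold of 0.05. Log2 fold changes carry their standard error, and normalised counts are counts divided by the size factor. A floor of 3 counts equals 0.106 to 0.442 CPM, and such floors cover counting error only. Every pair of replicates differed beyond sampling noise, LPS replicate 3 and LPS + IL-10 replicate 3 most. A check on simulated counts was passed before testing. It changed few genes, up and down alike and in the LPS + JQ1 group only, so it did not test the choice of scaling. Alternatives were total-count scaling, edgeR 4.0.16 (quasi-likelihood, TMM), limma 3.58.1 on log2(TPM + 1) and log2(TPM + 0.1) for genes with a TPM of at least 1 in at least 3 libraries, a filter of at least 10 counts in at least 3 libraries, the replicate block, sequencing lane, both together, the length offset, only the groups compared, and each library left out in turn. Lane 7 held replicate 1 and lane 8 replicate 3 in all groups, and replicate 2 was split, its LPS libraries on lane 8 and the others on lane 7. Only between LPS + IL-10 and LPS did the deviations of same-numbered libraries from their group means correlate above 0.1 in each pair (0.139, 0.21 and 0.381), and the value with the replicate block is given in the text for that comparison.

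Members, gene lists and tests were chosen with earlier results of these data known. Values in every library were printed for members with an adjusted p under 0.05 and an absolute log2 fold change of at least 1 in any of the 5 main comparisons, and for the largest JQ1 difference in each role group. Atg9a was added after its values were seen. Among the other pathway genes, the 2 largest rises and falls in LPS against unstimulated and in LPS + JQ1 against LPS were named by rule, and Wdfy3 after its value was seen. Positions are from GENCODE vM1 (mm9), and promoter windows from RefSeq (GRCm38.p6).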

Additional observations from a re-analysis of the deposited data

Results flagged for a closer look

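The effect of JQ1 on 25 autophagy genes and of IL-10 on 4 differed with and without LPS by a test of the difference itself (DESeq2 interaction, adjusted p under 0.05), given as the log2 fold change with LPS minus that without. Over all genes 41.5% were called for JQ1, 17.7% positive and 23.8% negative, and 7.44% were called for IL-10. The 9 negative calls for JQ1 and the 4 calls for IL-10 among the 37 genes are near those shares. For JQ1, 16 differences were positive. They were 1.88 for Ulk1, 1.37 for Atg2b, 1.21 for Atg2a, 1.16 for Nbr1, 1.15 for Atg4c, 1.13 for Atg16l2 and 1.02 for Atg101. Smaller ones were 0.84 for Ulk2, 0.82 for Wipi1, 0.81 for Atg14, 0.75 for Atg5, 0.71 for Wipi2, 0.66 for Atg13, 0.59 for Sqstm1, 0.43 for Map1lc3b and 0.41 for Pik3c3. The Sqstm1 value was lost without unstimulated replicate 2, JQ1 replicate 3, LPS replicate 3 or LPS + JQ1 replicate 1 (adjusted p = 0.0512 to 0.0907). That of Pik3c3 was lost without JQ1 replicate 1 or LPS + JQ1 replicate 1 or 2 (adjusted p = 0.0575 to 0.0951).

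The 9 negative differences for JQ1 were -0.96 for Atg16l1, -0.65 for Atg3, -0.58 for Ambra1, -0.57 for Tax1bp1, -0.57 for Optn, -0.42 for Gabarap, -0.41 for Becn1, -0.34 for Calcoco1 and -0.30 for Gabarapl2. Those of Gabarap, Becn1, Calcoco1 and Gabarapl2 turned positive with total-count scaling, and those of Atg3, Ambra1, Tax1bp1 and Optn shrank to -0.09, -0.02, -0.02 and -0.01 and were not called. The 16 positive calls and that of Atg16l1 were kept with total counts and with log2(TPM + 1). The Calcoco1 call was lost without any of 12 libraries and that of Gabarapl2 without any of 14, with adjusted p up to 0.18 for Calcoco1 (without LPS replicate 2) and up to 0.143 for Gabarapl2 (without LPS replicate 2). For IL-10 the differences were 1.04 for Tax1bp1, 1.03 for Optn, 0.71 for Atg9a and -0.36 for Atg3, the last not called with total counts.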

How the results depend on the processing

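Of 155 called log2 fold changes of members, refitted 4340 times, 4110 refits kept direction and call, 190 lost the call and 40 changed sign, and 109 values kept both in every refit. No call was lost with the replicate block or the count filter, and 6 were lost with edgeR and 12 with only the groups compared. The replicate block gave 35 members called in place of 34 for LPS, 8 in place of 7 for LPS + IL-10 against LPS and 5 in place of 4 for the IL-10 interaction, and changed no other count. The genes gained were Atg9a (0.20, adjusted p = 0.0453), Gabarapl1 and Sqstm1 (-0.57, adjusted p = 0.0325). Same-numbered libraries deviated together at a correlation of 0.086 for LPS, 0.107 for JQ1, 0.146 for IL-10, -0.018 for LPS + JQ1 against LPS and -0.035 between the 2 pretreatments with LPS. All 6 libraries correlated best with their own number for LPS, JQ1, IL-10 and LPS + IL-10 against LPS, but 2 of 6 for LPS + JQ1 against LPS and 1 of 6 between the pretreatments. This is a hint of pairing, which the titles do not state. The paper names 3 Il10-/- mice and used paired t-tests for qRT-PCR and cytokines between LPS and LPS + JQ1. Replicate number also went partly with lane, and the highest single value (0.381) was between the replicate 3 libraries of LPS and LPS + IL-10, which stood apart from their groups. The parts of mouse and lane in these correlations were not tested. Leaving out 1 library gave 34 to 36 members called for LPS, 24 to 28 for JQ1, 0 to 1 for IL-10, 27 to 30 for LPS + JQ1 against LPS, 4 to 6 for LPS + IL-10 against LPS (4 without LPS + IL-10 replicate 2), 24 to 27 between the pretreatments with LPS, 22 to 25 for the JQ1 interaction and 3 to 5 for the IL-10 interaction. Members called for JQ1 numbered 18 with log2(TPM + 1) and 16 with log2(TPM + 0.1), against 28. For IL-10 alone, 1 (Sqstm1, lower) was called with only the groups compared. For LPS + IL-10 against LPS, 11 were called with total counts, 11 with log2(TPM + 0.1) and 4 with only the groups compared, against 7. The cause of these shifts was not tested.

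All 40 changes of sign came with total counts or TPM. For LPS, the values with total counts, log2(TPM + 1) and log2(TPM + 0.1) were -0.32, -0.13 and -0.15 for Atg4a, -0.59, -0.42 and -0.45 for Atg4b, -0.20, -0.04 and -0.04 for Becn1, -0.51, -0.36 and -0.36 for Gabarap, and -0.55, -0.40 and -0.41 for Gabarapl2. For the JQ1 interaction they were 0.15, 0.09 and 0.09 for Becn1, 0.21, 0.16 and 0.18 for Calcoco1, 0.13, 0.08 and 0.08 for Gabarap, and 0.25, 0.20 and 0.20 for Gabarapl2. Gabarap gave -0.03, -0.05 and -0.05 for JQ1 alone and 0.11, 0.03 and 0.03 for LPS + JQ1 against LPS. Atg3 gave 0.09, 0.00 and 0.01 between the pretreatments with LPS. With total counts alone, signs changed for LPS + JQ1 against LPS to 0.06 for Ambra1, 0.03 for Atg3 and 0.04 for Map1lc3a, and between the pretreatments to 0.08 for Ambra1. At a mean normalised count of about 100 or less in LPS, as for Atg14, Atg4c, Atg16l2, Wipi1 and Atg10, depth limits the precision most.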
